A study of Homo sapiens with 4 samples.

Results

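ATP-binding cassette (ABC) proteins are a family built around a domain that binds and splits ATP. A list of 38 ABC genes, chosen by name, was followed on 4 one-color arrays of A549 cells, an established human lung adenocarcinoma cell line. Of these 38 genes, 37 had a probe, among 22439 genes with a probe on the array. The cells were grown in RPMI 1640 and transfected with Lipofectamine RNAiMAX. There was 1 array of cells given *miR-486-5p*, 1 array of cells given *miR-486-3p*, and 2 arrays of mock cells that received the reagent with no miRNA. These miRNAs are the opposite strands of 1 hairpin, and the comparisons addressed which transcripts differed after each strand. A control RNA of unrelated sequence was not analysed here, so an effect of the strand and an effect of any transfected small RNA cannot be told apart. The labels do not say that the mock arrays came from separate cultures, so every p-value measures the spread between 2 samples that may be technical. In such bulk RNA, fewer cells of a kind and less RNA per cell cannot be told apart.

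Most ABC proteins use ATP to move lipids, conjugated metabolites or drugs across a membrane. The ABCA and ABCG groups hold the cholesterol and phospholipid exporters, several of which are induced by the liver X receptors (LXR) when sterols accumulate. The drug efflux pumps lie in ABCB, ABCC and ABCG, several ABCB proteins work in mitochondria, and the ABCD group serves peroxisomes and lysosomes. ABCE1 and the ABCF proteins have no membrane part and act on ribosomes.

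The promoters of 4 genes that rose after *miR-486-3p* are shown: *ABCA1* as the textbook LXR target, and *ABCA7*, *ABCC2* and *ABCB6* as the largest rises among members with a promoter entry. Whether the rises involve these promoters was not tested. Each run is the 250 bases before the RefSeq start on GRCh38.p14, 5′ to 3′ on the strand of the gene, and capitals mark matches on either strand to the motifs named after them. Of the 38 genes, 31 had a promoter in the RefSeq table, and *ABCC3* and *ABCG1* were among those without one.
*ABCA1*, chr9:104928156-104928405, minus strand: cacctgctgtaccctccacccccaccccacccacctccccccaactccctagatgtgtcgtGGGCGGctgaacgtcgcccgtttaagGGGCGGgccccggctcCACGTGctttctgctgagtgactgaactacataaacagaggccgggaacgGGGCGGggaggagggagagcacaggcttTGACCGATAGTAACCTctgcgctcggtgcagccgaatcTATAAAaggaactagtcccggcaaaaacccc
*ABCA7*, chr19:1039857-1040106, plus strand: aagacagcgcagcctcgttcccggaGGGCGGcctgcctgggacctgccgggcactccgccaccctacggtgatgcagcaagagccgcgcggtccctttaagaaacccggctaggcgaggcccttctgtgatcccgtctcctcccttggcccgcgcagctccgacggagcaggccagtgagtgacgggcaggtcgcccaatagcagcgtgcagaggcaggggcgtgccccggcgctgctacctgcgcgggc
*ABCB6*, chr2:219218959-219219208, minus strand: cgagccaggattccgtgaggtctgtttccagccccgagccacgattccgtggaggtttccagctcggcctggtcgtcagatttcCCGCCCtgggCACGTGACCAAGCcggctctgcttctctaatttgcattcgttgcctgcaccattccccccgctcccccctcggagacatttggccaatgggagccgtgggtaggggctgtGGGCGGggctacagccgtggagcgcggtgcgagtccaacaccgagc
*ABCC2*, chr10:99782390-99782639, plus strand: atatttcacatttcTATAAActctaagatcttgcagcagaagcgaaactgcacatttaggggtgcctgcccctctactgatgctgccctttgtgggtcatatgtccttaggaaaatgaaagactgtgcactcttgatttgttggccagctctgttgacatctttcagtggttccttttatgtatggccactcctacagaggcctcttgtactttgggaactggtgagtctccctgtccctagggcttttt
The search used the E-box CACGTG, the GC box GGGCGG, the TATA box TATAAA, the core TGACNNNGC of the antioxidant response element, the DR4 direct repeat to which LXR binds, and the sterol regulatory element TCACNCCAC. Among 27305 promoters of the same length, 6.49% held the E-box, 42.3% the GC box, 11.1% the TATA box, 11% the antioxidant core, 0.0879% the direct repeat and 0.875% the sterol element. *ABCA1* was the only member of the 31 with the direct repeat, 69 bases before its start, and it also held an E-box and a TATA box 31 bases before the start. The E-box of *ABCB6* overlaps its match to the antioxidant core. *ABCA7* held 1 GC box, and *ABCC2* held only a TATA match 236 bases before the start. The GC box was in 18 of the 31 members and the sterol element in none. These are matches of letters, and no binding was measured.

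Between 30690 and 31516 of 58201 probes were well above background on each array, as called by the scanner software. The mRNAs of keratins *KRT8*, *KRT18* and *KRT19* and of *VIM* were well above background on all 4 arrays, while the *CDH1* probe was on none. Of the surfactant genes, *SFTPC* was above background on all 4 arrays, *SFTPB* on none and *SFTPD* on 1 mock array. The leukocyte gene *CD3E* and 2 of 5 *PTPRC* probes were also above background on all 4 arrays, the 3 *PECAM1* probes were on none, and 1 of 2 *VWF* probes was on all 4. These low signals were not examined further.

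Values are given as the log2 signal relative to the 75th percentile of the array, so they compare arrays for 1 probe and not 1 probe with another. For a gene, the transfected value less the average of the mock pair was taken at each usable probe, and these were averaged. Differences past 0.5 on the log2 scale were counted as lower or higher. limma was fitted across all probes with Benjamini-Hochberg adjustment at 0.05, and a gene was called where at least 1 probe passed. The verbs rose and fell are used only for genes called by limma. Both comparisons use the same mock arrays.

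The family held 53 probes, of which 36 were well above background on all 4 arrays, 6 on some and 11 on none. *ABCA4*, *ABCA6*, *ABCA8*, *ABCA12*, *ABCA13*, *ABCB11*, *ABCC9*, *ABCC11* and *ABCC12* were not well above background on any array and have no difference. *ABCF2* had no matched probe. A value could be given for 26 members in the *miR-486-5p* comparison and for 28 in that of *miR-486-3p*, which added *ABCB4* and *ABCC8*. Some of these passed only because 1 side was bright, so the counts below are also given for the 22 members with a probe above background on all 4 arrays.

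After *miR-486-5p*, 9 of 26 members were lower (34.6%, against 15.9% of all 16024 genes with a value) and 4 were higher (15.4%, against 13.8%). Among the 22 members detected on all arrays, 7 were lower (31.8%, against 15.5% of the 14960 genes so detected) and 3 were higher (13.6%, against 12.5%), so the higher share was about that of all genes. limma called 4 of 28 members (14.3%, against 10.2% of all genes tested): *ABCB1* and *ABCC5* rose, and *ABCB8* and *ABCC3* fell. These 4 calls depend on the source of the values: on the deposited log2 values limma called 0 of all 16662 genes tested after *miR-486-5p*. Of these genes, 7997 had an unadjusted p under 0.05. The same limit holds for every other gene said to rise or fall after *miR-486-5p*. After *miR-486-3p*, 8 of 28 members were lower (28.6%, against 27.2%) and 14 were higher (against 30.5% of all genes). For the 22 members detected on all arrays, 7 were lower (31.8%, against 28.5%) and 10 were higher (45.5%, against 26.9%). limma called 23 of 28 (82.1%, against 62.2%), 14 higher and 9 lower. The lower share after *miR-486-3p* was thus close to that of all genes. The median difference over members stood at −0.34 for *miR-486-5p* against 0.03 over all genes, and at 0.53 for *miR-486-3p* against 0.06. With the arrays centered on their median, which moved the median of all genes by −0.37 after *miR-486-3p*, 11 members were lower and 10 higher after that strand. With a further background correction (normexp), 2 were lower and 9 higher after *miR-486-3p*, and 2 were lower and 2 higher after *miR-486-5p*.

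**Figure D1:**
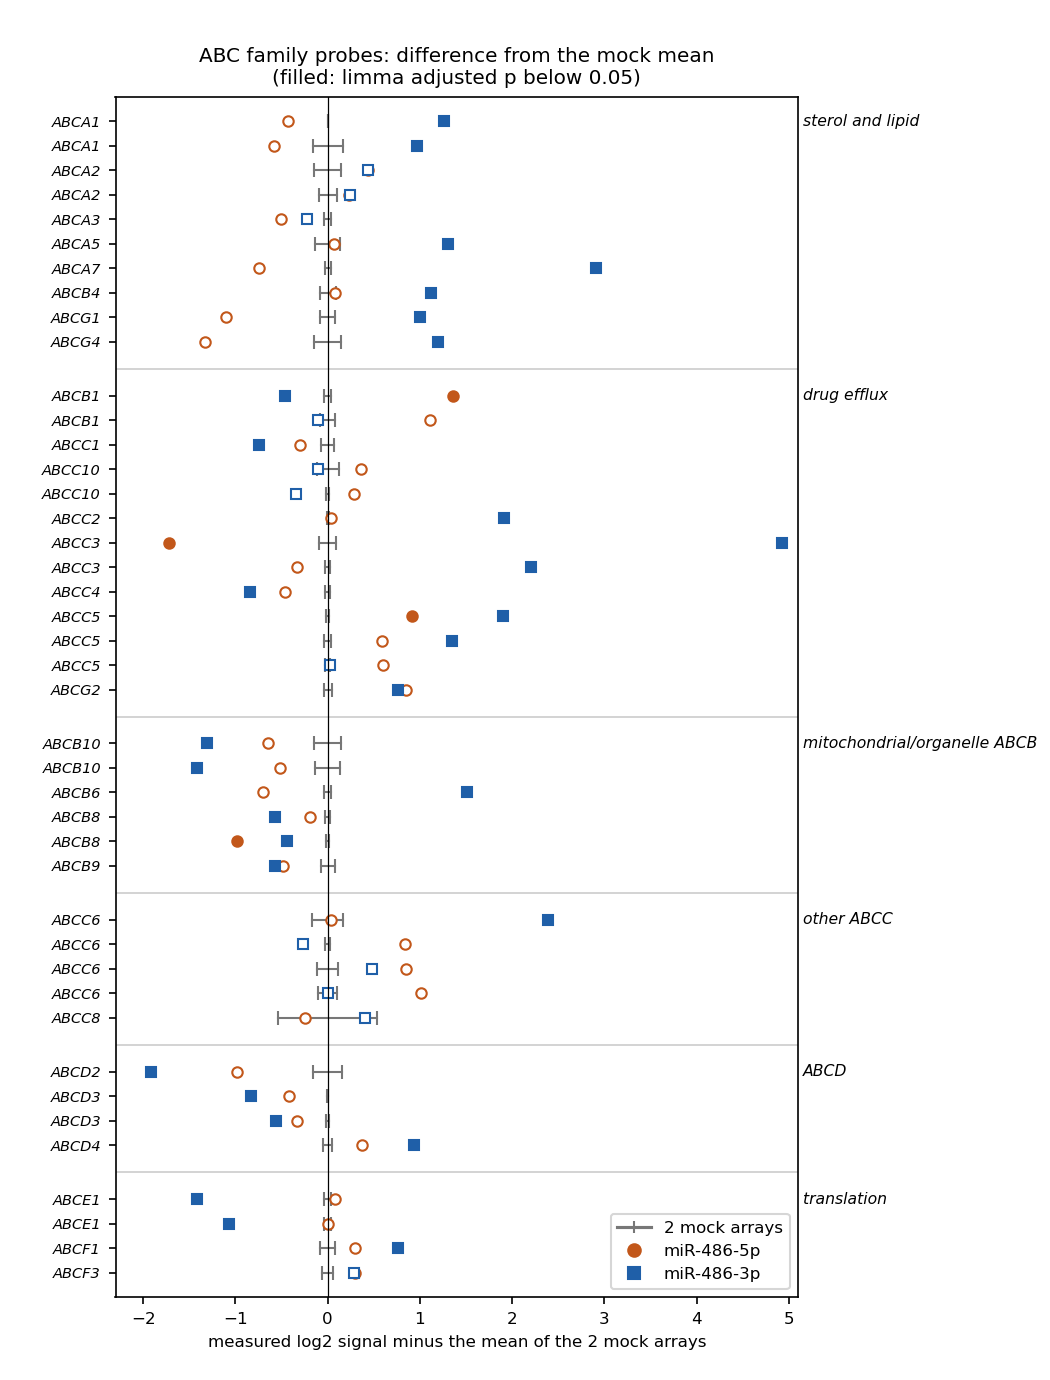
Measured log2 signal of each ABC probe detected on at least 1 array, less the average of the mock pair, by role. Gray bars join the 2 mock arrays, circles are *miR-486-5p* and squares *miR-486-3p*, filled where limma's adjusted p was below 0.05; values not well above background are drawn as measured. The *miR-486-3p* squares reach 4.92 at 1 *ABCC3* probe, and the sterol and lipid squares lie right of the mock bars except at *ABCA3*.

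Sterol and lipid transporters stood on opposite sides of mock after the 2 strands, going by their medians. After *miR-486-3p*, 6 of 8 of these members with a value rose, none fell, and the median difference was 1.06. Of all genes, limma called 62.2% there, in either direction. *ABCB4* had a value only because its probe was bright after that strand, so it could not count as lower. Among members detected on all 4 arrays, *ABCA1*, *ABCA5* and *ABCA7* rose, and *ABCA2* and *ABCA3* were not called. After *miR-486-5p*, 4 of 7 were lower (against 15.9% of all genes), none was higher, the median was −0.50, and limma called none. Of those 4, *ABCA1* and *ABCA3* lay on the limit, at −0.51 and −0.50. With normexp only *ABCA3* stayed lower, while *ABCA1* was at −0.16, *ABCA7* at −0.29 and *ABCG1* at −0.04. *ABCG1* and *ABCG4* had a value there only because their mock signals were bright, so neither could count as higher. Among members detected on all 4 arrays, *ABCA1*, *ABCA3* and *ABCA7* were lower, and *ABCA2* and *ABCA5* were within 0.5. The direct contrast of the transfected arrays called the same 6 members, each higher on the *miR-486-3p* array: *ABCA1*, *ABCA5*, *ABCA7*, *ABCB4*, *ABCG1* and *ABCG4*. *ABCA7*, a phospholipid transporter linked to phagocytosis, changed most. Its log2 signal was −1.03 and −1.09 in the mock pair, −1.80 with *miR-486-5p* and 1.85 with *miR-486-3p*. The last array stands far above the other 3, a rise of 2.91 (7.53-fold, limma adjusted p = 0.0076), and the array of *miR-486-5p* lies below both mock arrays (−0.74, limma adjusted p = 0.053). Between the strands *ABCA7* differed by 3.66 (95% interval 3.29 to 4.02).

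*ABCA1*, which passes cellular cholesterol to apolipoprotein A-I, had 2 probes with the same order of arrays. The brighter probe read 0.05 and 0.06 in the mock pair, −0.38 with *miR-486-5p* and 1.32 with *miR-486-3p*. The dimmer probe read −3.19 and −2.86, −3.60 and −2.06. On both probes the strands lie on opposite sides of the mock pair. The rise after *miR-486-3p* passed limma at both (adjusted p = 0.0091 and 0.039), and the *miR-486-5p* values did not (0.079 and 0.15). *ABCG1*, which loads cholesterol onto high-density lipoprotein, read −3.95 and −4.12 on the mock arrays and −3.03 after *miR-486-3p*, a rise of 1.00 (limma adjusted p = 0.018). After *miR-486-5p* it was not well above background. With that side raised to the dimmest detected signal of its array, it was 1.49-fold lower there, which is not a strict bound. Its relative *ABCG4* had the same order of arrays, 2.29-fold higher after *miR-486-3p* (limma adjusted p = 0.023). With its undetected signal raised in the same way, it was 1.33-fold lower after *miR-486-5p*. As a log2 difference the latter value of −0.42 did not pass 0.5, and it came to −0.0094 with normexp. *ABCA5*, found in late endosomes and lysosomes, read −2.11 and −2.38 in the mock pair, −2.18 with *miR-486-5p* and −0.94 with *miR-486-3p*, a rise of 1.31 (limma adjusted p = 0.018). *ABCB4*, which moves phosphatidylcholine into bile, was above background after *miR-486-3p* alone. With the mock side raised to the dimmest detected signal, it was 1.82-fold over the mock arrays on this scale. That log2 difference of 0.86 came to 0.43 on the deposited log2 values and 0.25 with normexp.

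The other 2 lipid members did not follow this. *ABCA3* fills the lamellar bodies of alveolar type II cells with surfactant lipid. It read 1.32 and 1.40 in the mock pair, 0.86 with *miR-486-5p* and 1.14 with *miR-486-3p*, below both mock arrays each time, with limma adjusted p = 0.075 and 0.16. *ABCA2*, a lysosomal lipid transporter best known from brain, was 0.34 above the mock mean after either strand and was called after neither. With median centering its *miR-486-3p* value was −0.03. The normexp correction left *ABCA7* at 1.98 and *ABCA1* at 0.64 after *miR-486-3p*, while *ABCG1* and *ABCG4* came to 0.30 and 0.32.

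The LXR and sterol handling genes, 16 in number, were set beside these. After *miR-486-3p*, 8 were lower and 4 higher, with a median of −0.61, and limma called 9 lower and 4 higher. Of all genes, 27.2% were lower, 30.5% higher and 62.2% called. The median of the 16 genes thus lay on the other side of 0 from the median of the transporters. *NR1H3*, the gene of LXR alpha, read 1.40 and 1.54 on the mock arrays and −0.56 after *miR-486-3p*, and it fell by 2.03. *RXRA*, the partner receptor of LXR, rose by 1.1. Genes of lipid supply fell as well. *LPCAT3*, a phospholipid remodeling enzyme, fell by 2.56, *NCEH1*, which hydrolyzes cholesteryl esters, fell by 1.79, and *SREBF2*, a sterol-regulated transcription factor, fell by 1.23. After *miR-486-5p*, 2 of the 16 were lower and 3 higher, against 15.9% and 13.8% of all genes. *NR1H2*, the gene of LXR beta, rose by 1.1 after that strand (limma adjusted p just under the threshold of 0.05).

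**Figure D2:**
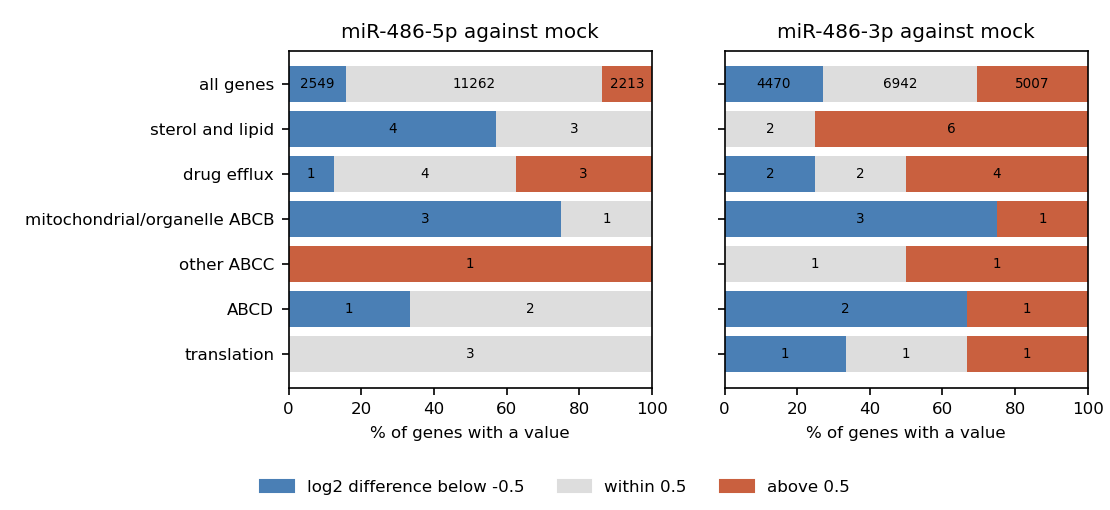
Share of genes with a value whose log2 difference from mock was below −0.5, within 0.5 or above 0.5, by role of the ABC member and for all genes, after each strand. Numbers on the bars are genes. Sterol and lipid members were lower in 4 of 7 after *miR-486-5p* and higher in 6 of 8 after *miR-486-3p*, where *ABCB4* could not count as lower. After *miR-486-5p*, *ABCG1* and *ABCG4* could not count as higher. After either strand, *ABCG2* could not count as lower nor *ABCD2* as higher.

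The drug efflux members went both ways. After *miR-486-3p*, 4 of 8 with a value were higher and 2 lower, and limma called 4 higher and 3 lower. After *miR-486-5p*, 3 were higher and 1 lower, and limma called 3. *ABCG2* had a value only because its probe was bright on the transfected arrays, so it could not count as lower after either strand. Of all genes, 30.5% were higher, 27.2% lower and 62.2% called after *miR-486-3p*. The shares after *miR-486-5p* were 13.8%, 15.9% and 10.2%. *ABCC3*, which exports glucuronide and bile salt conjugates from the basolateral side of cells, had the largest rise of any member after *miR-486-3p* and, among members measured on all arrays, the largest fall after *miR-486-5p*. Its 2 probes are listed under different transcripts. The first read −2.85 and −2.67 in the mock pair, −4.48 with *miR-486-5p* and 2.17 with *miR-486-3p*. The second read −2.89 and −2.95, −3.26 and −0.72. Both probes put the *miR-486-3p* array on top and the *miR-486-5p* array at the bottom, but by unequal amounts. The rise after *miR-486-3p* was 30.4-fold at the first and 4.62-fold at the second (limma adjusted p = 0.0076 at each), 11.8-fold as the gene's mean. The fall after *miR-486-5p* was 1.72 at the first (limma adjusted p = 0.048), and the second was at −0.33 (0.12).

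*ABCC2*, which exports conjugates on the apical side, rose after *miR-486-3p* and was 0.04 from mock after *miR-486-5p* (limma adjusted p = 0.79). It read −3.29 and −3.26 in the mock pair, −3.24 with *miR-486-5p* and −1.37 with *miR-486-3p*, which is 3.75-fold above mock (limma adjusted p = 0.0076). *ABCB1*, the gene of P-glycoprotein, the best known pump of chemotherapy resistance, had the opposite order. Its brighter probe read −1.79 and −1.87 in the mock pair, −0.47 with *miR-486-5p* and −2.29 with *miR-486-3p*. Its dimmer probe read −2.67 and −2.84, −1.64 and −2.86. Both probes put the *miR-486-5p* array alone above the rest, 2.35-fold over mock as the gene's mean, with limma adjusted p = 0.048 and 0.050, of which only the first passed. After *miR-486-3p* the brighter probe fell by 0.46 (limma adjusted p = 0.043), the dimmer was at −0.10 (0.52), and the gene's mean of −0.28 turned to 0.03 with normexp. The strands differed at both *ABCB1* probes, by −1.82 and −1.21 (limma adjusted p = 0.012 and 0.021).

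*ABCC1* and *ABCC4* fell after *miR-486-3p*. *ABCC1*, which exports glutathione conjugates, read −0.54 and −0.69 in the mock pair, −0.92 with *miR-486-5p* and −1.36 with *miR-486-3p*, below both mock arrays each time. It fell by 0.75 after *miR-486-3p* (limma adjusted p = 0.026), and *ABCC4*, an exporter of cyclic nucleotides, fell by 0.84 (0.015). *ABCG2*, the breast cancer resistance protein, was not well above background on the mock arrays and was so on both transfected arrays. With the mock side raised to the dimmest detected signal, it was 1.70-fold higher after *miR-486-5p* and 1.59-fold higher after *miR-486-3p* on this scale. As log2 differences these values of 0.76 and 0.67 came to 0.14 and 0.21 with normexp, and the second was 0.24 on the deposited log2 values. *ABCC10* had differences of 0.33 and −0.23 and was called after neither strand. The normexp correction left *ABCC3* at 2.00, *ABCC2* at 0.71, *ABCC1* at −0.24 and *ABCC4* at −0.22 after *miR-486-3p*, and *ABCB1* at 0.54 and *ABCC3* at −0.12 after *miR-486-5p*.

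*ABCC5*, an organic anion pump, had 3 probes that disagreed. The probe of its first listed transcript read 2.07 and 2.04 in the mock pair, 2.98 with *miR-486-5p* and 3.96 with *miR-486-3p*, and rose after both (limma adjusted p = 0.048 and 0.0076). Of the 2 probes listed under a second transcript, 1 read −1.74 and −1.67, −1.11 and −0.35, while the other read 1.46 and 1.41, 2.04 and 1.46. The last probe was 0.03 from mock with *miR-486-3p* (limma adjusted p = 0.80), where the other 2 rose by 1.90 and 1.35. After *miR-486-5p* all 3 probes lay above both mock arrays, at 0.92, 0.59 and 0.60.

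**Figure D3:**
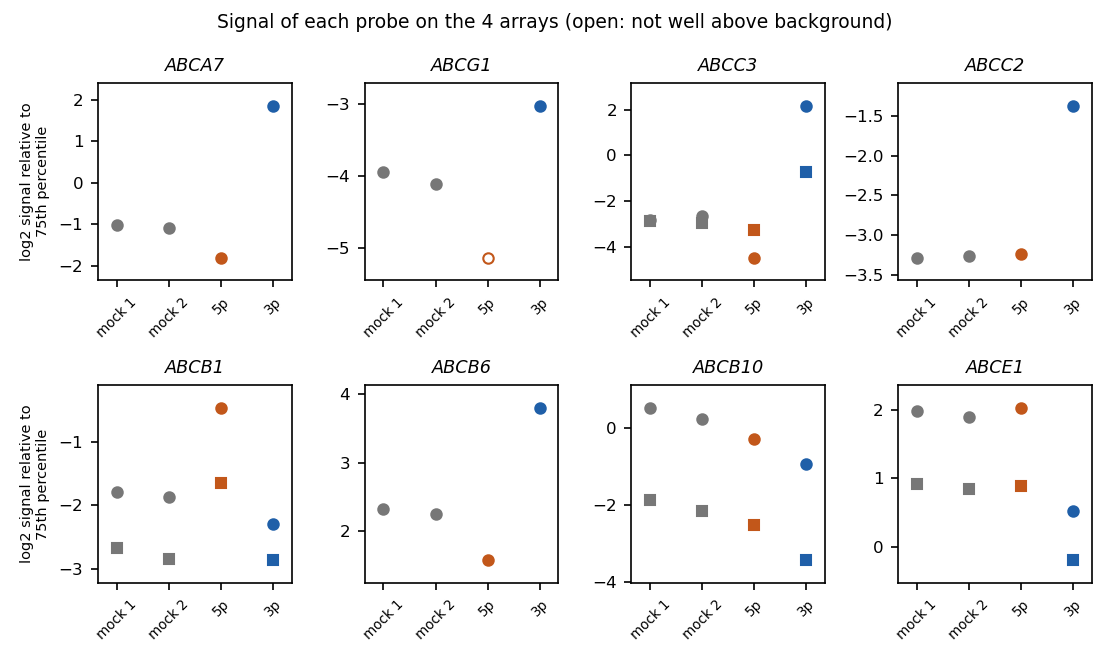
Log2 signal relative to the 75th percentile of the array for each probe of 8 ABC genes on the mock pair and on the array of each strand. Circles and squares are different probes of a gene and open symbols are not well above background; *ABCC3*, *ABCC2*, *ABCA7*, *ABCG1* and *ABCB6* are highest on the *miR-486-3p* array, *ABCB1* on the *miR-486-5p* array, and *ABCE1* and *ABCB10* are lowest on the *miR-486-3p* array.

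The conjugation enzymes, uptake carriers and regulators listed beside the pumps, 15 of 16 with a probe, had 3 of 12 lower and 3 higher after *miR-486-3p*, and 1 of 13 lower and 2 higher after *miR-486-5p*. Of all genes, 27.2% were lower and 30.5% higher after *miR-486-3p*, and 15.9% and 13.8% after *miR-486-5p*. *SLCO4A1*, an uptake carrier of organic anions, fell after both strands, from 1.42 and 1.39 on the mock arrays to −0.16 with *miR-486-5p* and −1.09 with *miR-486-3p* (limma adjusted p = 0.048 and 0.0076). *SLC7A11*, which imports cystine for glutathione, fell by 1.46 after *miR-486-3p*.

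Of the 4 ABCB members of mitochondria and other organelles, 3 were lower after *miR-486-5p* (*ABCB6*, *ABCB8* and *ABCB10*) and 3 after *miR-486-3p* (*ABCB8*, *ABCB9* and *ABCB10*). limma called all 4 after *miR-486-3p*, where 62.2% of all genes were called and 27.2% were lower. In the *miR-486-5p* comparison it called *ABCB8* alone of the 4. There, 10.2% of all genes were called and 15.9% were lower. The 4 members were not tested against these shares. *ABCB10*, an inner membrane protein needed for heme synthesis, fell by 1.37 after *miR-486-3p*. Its brighter probe read 0.53 and 0.23 in the mock pair, −0.26 with *miR-486-5p* and −0.93 with *miR-486-3p*. The dimmer read −1.87 and −2.14, −2.52 and −3.43, so both probes fell (limma adjusted p = 0.021 and 0.017) and both were lower after *miR-486-5p* without passing the test (0.12 and 0.15). *ABCB6*, a porphyrin transporter, was the exception. It read 2.32 and 2.25 in the mock pair, 1.58 with *miR-486-5p* and 3.80 with *miR-486-3p*, a rise of 1.51 (limma adjusted p = 0.0086). After *miR-486-5p* it was at −0.70 (limma adjusted p = 0.055), and the strands differed by 2.21. *ABCB8*, linked to mitochondrial iron export, fell after both strands at the brighter of its probes, from 0.83 and 0.79 to −0.17 after *miR-486-5p* (limma adjusted p = 0.048) and to 0.37 after *miR-486-3p* (0.040). Its dimmer probe fell by 0.58 after *miR-486-3p* (limma adjusted p = 0.026) and was at −0.19 after *miR-486-5p* (0.23). *ABCB9*, a lysosomal peptide transporter, fell by 0.57 after *miR-486-3p* (limma adjusted p = 0.042), and with normexp it stood at 0.01. After *miR-486-3p*, *ABCB10* was at −0.55 and *ABCB8* at −0.22 with normexp.

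*ABCC6*, mutated in pseudoxanthoma elasticum, had 4 probes in 2 patterns. The probe of the transcript listed first read −3.87 and −3.53 in the mock pair, −3.66 with *miR-486-5p* and −1.31 with *miR-486-3p*, and rose by 2.39 after the latter (limma adjusted p = 0.011). The 3 probes listed under the other transcript were 0.84, 0.86 and 1.01 above the mock mean after *miR-486-5p* and between −0.27 and 0.48 from it after *miR-486-3p*, and none of these passed limma. The mean of 0.65 after *miR-486-3p* rests on the first probe and was −0.27 with the brightest probe alone. *ABCC6* has near-identical pseudogenes, so the source of these signals is uncertain. *ABCC8*, a subunit of the ATP-sensitive potassium channel, was above background on 1 of the mock arrays and had a value of 0.40 after *miR-486-3p*, within the gap between its mock arrays.

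All 3 ABCD members were called after *miR-486-3p*, where 62.2% of all genes were, and none after *miR-486-5p*, where 10.2% were. *ABCD3*, an abundant peroxisomal membrane protein that imports branched and long-chain acids, fell at both probes. The brighter read 1.43 and 1.44 in the mock pair, 1.02 with *miR-486-5p* and 0.60 with *miR-486-3p*, and the dimmer −0.77 and −0.74, −1.08 and −1.32. The arrays kept 1 order at both probes, and the fall after *miR-486-3p* averaged 0.70 (limma adjusted p = 0.014 and 0.026). *ABCD2*, its relative for very long chain fatty acids, was above background on the mock arrays alone, so it could not count as higher. With undetected signals set no lower than the dimmest detected signal, it was 1.98-fold lower after *miR-486-5p* and 2.00-fold lower after *miR-486-3p*. With normexp these differences were −0.07 and −0.01. *ABCD4*, which serves cobalamin export from lysosomes, rose by 0.94 after *miR-486-3p* (limma adjusted p = 0.015).

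The 25 other peroxisome genes had a median of 0.32 after *miR-486-3p*, with 9 higher and 5 lower, and limma called 11 higher and 6 lower. Of all genes, 30.5% were higher, 27.2% lower and 62.2% called, so these counts are not particular to peroxisome genes. The peroxin genes *PEX2*, *PEX13* and *PEX11G* rose by 1.31, 1.22 and 1.04, and *PEX14*, a docking component of the import machinery, fell by 1.72. *PPARA*, a nuclear receptor that induces genes of fatty acid oxidation, rose by 1.79. After *miR-486-5p*, 3 of the 25 peroxisome genes were lower and 2 higher, against 15.9% and 13.8% of all genes.

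*ABCE1*, which splits ribosomes after termination, fell after *miR-486-3p* alone among the soluble members. Its brighter probe read 1.98 and 1.90 in the mock pair, 2.02 with *miR-486-5p* and 0.52 with *miR-486-3p*. The dimmer read 0.92 and 0.84, 0.88 and −0.19. At both probes 3 arrays lay together and the *miR-486-3p* array lay below them, 2.37-fold under mock as the gene's mean (limma adjusted p = 0.0091 and 0.012). The strands differed by −1.50 and −1.07 (limma adjusted p = 0.013 and 0.018). With normexp *ABCE1* was at −0.94. *ABCF1*, a factor of translation initiation, read 3.92 and 4.08 in the mock pair, 4.30 with *miR-486-5p* and 4.76 with *miR-486-3p*, and rose by 0.76 after the latter (limma adjusted p = 0.027; 0.39 with median centering). *ABCF3* read 3.08 and 3.20, 3.44 and 3.42, above both mock arrays each time with neither called, and its *miR-486-3p* difference of 0.28 was −0.09 with median centering. *ABCF2* is covered only through a probe that the RefSeq table assigns to the read-through gene *ABCF2-H2BK1*, which read 2.13 and 2.18 in the mock pair, 2.29 with *miR-486-5p* and 2.25 with *miR-486-3p*.

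Of 17 ribosome recycling and stress genes with a value, 5 were lower and 5 higher after *miR-486-3p*, against 27.2% and 30.5% of all genes. After *miR-486-5p*, 1 was lower and 1 higher, against 15.9% and 13.8%. Among recycling factors, *PELO* and *DENR* rose by 1.03 and 1.04 after *miR-486-3p*, and *EIF2D* fell by 1.14.

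The direct contrast of the transfected arrays, which uses no mock signal except for the spread, called 16 of 28 members (57.1%, against 53.1% of all genes tested). Of these, 11 were higher after *miR-486-3p*, 3 were lower (*ABCB1*, *ABCC10* and *ABCE1*), and *ABCC5* and *ABCC6* had probes called each way. The share called was near that of all genes. Past the limit of 0.5, *ABCA1*, *ABCA7*, *ABCB6*, *ABCC3* and *ABCG1* were lower after *miR-486-5p* and higher after *miR-486-3p*. No member had the reverse pattern past the limit. *ABCB8*, *ABCB10* and *ABCD2* were lower after both, and *ABCC5*, *ABCC6* and *ABCG2* were higher after both. Because of where their probes were detected, *ABCG2* could not count as lower nor *ABCD2* as higher after either strand. Likewise, *ABCG1* could not count as higher after *miR-486-5p*. The share of all genes with each pattern was not counted, so the patterns are not shown to be particular to the family. With normexp only *ABCB6* kept the opposite differences past the limit, at −0.65 and 1.28.

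**Figure D4:**
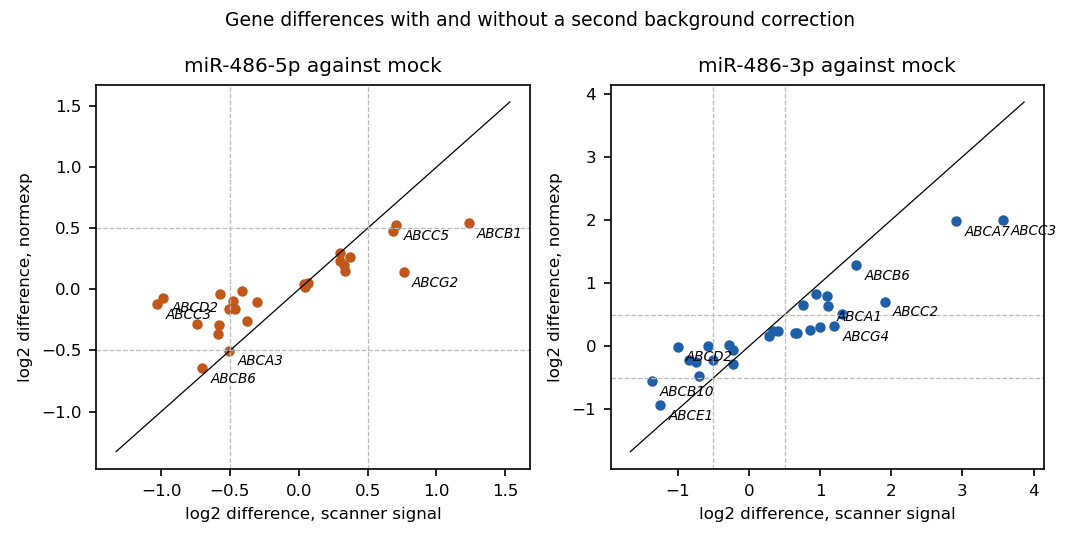
Log2 difference of each member from mock with the scanner's signal (x axis) and after normexp correction of the raw signal (y axis), for each strand. The solid line marks equal values and dashed lines the limits at 0.5 and −0.5; most members move toward 0, and *ABCC3* after *miR-486-3p* goes from 3.57 to 2.00.

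Of 35 member differences past 0.5 on the scanner's signal, 13 stayed past it under each other source, scaling, probe rule and mock array that was run. Over the 36 member probes detected on all arrays, the mock arrays differed by 0.0020 to 0.34 with a median of 0.082, and none of these gaps passed 0.5.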

How the data were processed

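RNA of A549 cells was labeled with Cy3 and hybridized to 4 one-color Agilent arrays, all on 1 slide and in 1 scan. The authors deposited Agilent Feature Extraction 12.1.1.1 output, a linear intensity per spot that the software had background-corrected, with flags for detection, saturation and outliers. The authors also deposited log2 values for the same arrays, with equal medians of 2.76, whose normalization is not given in the sources used here; their scale is log2 and their direction follows the signal (Pearson 0.9996 or more).

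The log2 of the processed signal minus each array's 75th percentile was used (105 and 93.1 for *miR-486-5p* and *miR-486-3p*, 114 for each mock array). Outlier spots were dropped, 50 to 72 per array, and spots of a probe were averaged. A probe was usable where detected in the mock pair or after transfection. An undetected side was set no lower than the dimmest detected signal of its array. The difference is then not a strict bound, because an undetected probe can read above that signal. After *miR-486-5p*, *ABCD2* was undetected at −4.37 while an *ABCC3* probe was detected at −4.48. Names came from RefSeq accessions in a GRCh38.p14 table, used for names only (31104 of 33080 probes matched), because the arrays were annotated on another build.

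limma 3.58.1 in R 4.3.3 was fitted to all 4 arrays in 3 groups on 33498 probes, using measured values with no signal raised. It had 1 residual degree of freedom between the mock arrays and a prior of 1.75 degrees of freedom and SD 0.0893. The spread of the transfected arrays is taken to equal that of the mock pair. The script was tested on simulated data. All p-values are two-sided. The number of arrays limits the precision.

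Members and lists were chosen with earlier results of these data known. Values per array are given for members past 1 with a probe detected on all arrays and for the members that define each role; *ABCG4*, *ABCB4*, *ABCD2*, *ABCD4*, *ABCC4*, *ABCB8*, *ABCB9*, *ABCC6*, *ABCC8* and *ABCC10* were named after their values were seen. Other genes of each pathway are named where they passed 1; the values of some are not reported here, although they are in the counts. Alternatives were each mock array left out, median and quantile scaling, normexp with an offset of 50, the deposited log2 values, 3 rules for probes, a limit of 1, an intensity trend and the methods' t-test. No dose or time was used.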

Additional observations from a re-analysis of the deposited data

How the results depend on the processing

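No paired analysis was possible because with 1 array a strand, no more than 1 replicate number is common to it and the mock group. No slide block could be fitted, and limma without either mock array leaves no residual degrees of freedom. Without either mock array, 8 to 9 members were lower and 4 higher after *miR-486-5p*, and 7 lower and 14 to 15 higher after *miR-486-3p*.

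The normexp correction gave 2 lower and 2 higher after *miR-486-5p* and 2 lower and 9 higher after *miR-486-3p*, and a limit of 1 gave 1 and 1, and 3 and 9. For *miR-486-5p*, where 4 members were called, limma called 11 with median scaling, 8 with quantile normalization, 13 with normexp, 12 with probes detected on all 4 arrays and 17 with an intensity trend. Over all genes the calls moved as well. In place of 1700 of 16662 genes, limma called 3419, 2108, 7434, 5727 (of 14960) and 7761 in the same order. On the deposited log2 values and without the filter on dim probes, limma called 0 of all genes, and so 0 members. There, 7997 and 9219 of all genes had an unadjusted p under 0.05. The methods' t-test called 7 members unadjusted and 0 after Benjamini-Hochberg, with 4344 of all genes unadjusted and 0 adjusted. For *miR-486-3p*, limma called 13 members without the filter in place of 23, and 8588 of 22439 genes in place of 10372 of 16662. The t-test called 10 members unadjusted and 0 adjusted, with 7033 of all genes unadjusted and 0 adjusted. Between the strands the t-test called 0 members adjusted in place of 16, with 6264 of all genes unadjusted and 0 adjusted. Over single members, 381 of 476 values stayed, 93 moved and 2 reversed: after *miR-486-3p*, *ABCB9* was at 0.010 with normexp, and *ABCC6* was at −0.27 with its brightest probe. The causes were not tested. Signals near background limit *ABCB4*, *ABCC8*, *ABCD2*, *ABCG1*, *ABCG2* and *ABCG4*. They also limit the fall of *ABCC3* after *miR-486-5p*, where the probe that was called read −4.48.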
